A study of Mus musculus with 6 samples.

Results

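The genes that write, remove and read histone acetylation were examined in mouse morulae after knockdown (KD) of *Yy1*. The set holds 32 genes of the 55364 listed in the deposited table and is a list of gene names by function: 11 lysine acetyltransferases, 11 histone deacetylases of the HDAC family, 6 sirtuins and 4 bromodomain proteins. Embryos of the cross BDF1 x BDF1 were injected at the zygote stage with a control siRNA (control KD) or with an siRNA against *Yy1* (*Yy1* KD), cultured in KSOM and collected as morulae. Total RNA of 3 libraries per group, each from pooled embryos, was sequenced, and all 6 libraries share the cross, the injection, the culture and the stage. An siRNA leaves some transcript and any protein already stored in the egg, so that the design is a depletion and not a deletion, and pooling hides differences between embryos.

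Acetyl groups on the lysines of histone tails loosen chromatin and serve as docking sites. Acetyltransferases such as p300, its relative CBP and the GNAT and MYST enzymes add them from acetyl-CoA, HDACs of the zinc-dependent classes and the NAD+-dependent sirtuins remove them, and proteins with a bromodomain bind them and recruit the transcription machinery. YY1, a zinc finger factor that can activate or repress, is known to bind both p300/CBP and HDACs, which makes these enzymes its cofactors. In the early embryo, the acetylated state of chromatin is set up anew after fertilization, and HDAC1 is the main class I deacetylase of the preimplantation stages.

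The YY1 core motif GCCATNTT, or AANATGGC on the other strand, was searched in RefSeq promoter windows (GRCm38.p6, 250 bases before to 50 bases after each start). A window was available for 27 of the 32 genes, and 3 of these genes held a match, which is 11.1% of genes against 6.96% of all 27025 genes with a window. Counted by windows, 3 of 39 (7.69%) held the motif, against 6.05% of all 32851 windows. The 3 sites are printed because they are the only members' windows with these letters, and 1 of them belongs to *Brd2*, the member with the largest called change. Each run is 30 bases on the strand of its gene, with the motif in capitals.
Brd2: ccgcgacttctAAGATGGCgtctgtcttcc
Kat7: tgcccaattccAAAATGGCgctgactggcc
Sirt2: cgccctttatcAATATGGCcgccggcgcca
The *Brd2* run lies at chr17:34119910-34119939, where the gene is on the minus strand, 28 bases before a start inside the gene and outside its annotated exons, and the windows of the other 2 starts of *Brd2* held no match. The *Kat7* run lies at chr11:95310312-95310341, with the gene on the minus strand and the motif 84 bases before the start, outside the gene. The *Sirt2* run lies at chr7:28766643-28766672, with the gene on the plus strand and the motif 98 bases before the start, also outside the gene. The window of *Crebbp*, the other member called, held no match. A match in these letters is a description of the sequence and not of binding.

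The targeted gene was examined first. *Yy1* (ENSMUSG00000021264.12, chr12:108792973-108820148, plus strand) had 96.0, 100.2 and 89.8 TPM in control KD against 8.73, 8.90 and 8.32 TPM in *Yy1* KD, which is 0.0907 times the control level. TPM, a transcript abundance per library, is the number of read pairs on a gene per length of its exons, scaled so that each library sums to the same total, and it allows levels of different genes to be compared within a library. Differences were tested with limma on log2(TPM + 1) over the 17353 genes with at least 1 TPM in at least 3 libraries. A gene was called at a Benjamini-Hochberg adjusted p under 0.05 over all of these genes. *Yy1* fell by 3.32 on the log2 scale (standard error 0.089, adjusted p = 6.71e-05 by limma).

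The libraries held between 11793509 and 24417789 read pairs recovered from TPM, and 16696 to 17687 genes with at least 1 TPM. All 10 morula markers were above 4 TPM in every library, with sums of 6542 ± 264 and 6468 ± 245 TPM (mean ± SD, n = 3), of which *Dppa3* took most at 4539 ± 322 and 4765 ± 96.7 TPM. Within this list *Tfap2c*, a trophectoderm factor, fell from 183 ± 7.24 to 126 ± 9.14 TPM (adjusted p = 0.0174 by limma), and *Sox2* was at 10.98 ± 2.91 and 5.60 ± 1.51 TPM without overlap (adjusted p = 0.0942 by limma). Of 9 cumulus cell markers, 5 were at 0 everywhere and the sums were 2.44 ± 0.953 and 2.23 ± 0.985 TPM. Of 6 sperm markers, 1 was at 0 everywhere and the sums were 0.488 ± 0.146 and 1.44 ± 1.25 TPM. The 8 oocyte markers summed to 56.0 ± 9.06 and 58.0 ± 9.12 TPM, and none of the 4 sums separated the groups. As pools of whole embryos were measured, fewer cells with a transcript and less RNA per cell cannot be told apart. The labels do not say whether the libraries came from separate cultures, so that p-values measure the spread between these libraries. For a single gene, the exact permutation test of 3 libraries against 3 cannot give a two-sided p below 0.1.

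The acetylation genes were called at a share near that of all genes tested. Of the 32 genes, 26 passed the filter on low values and were tested. *Brd2* rose, *Crebbp* fell and the other 24 were not called. Over all genes tested, 6.11% were called, 1.92% as higher and 4.2% as lower, against 7.69% of the 26 members, so that the share of members called was near the background. Over all genes, 333 were called higher and 728 lower, and with quantile normalization 388 and 548. The median log2 fold change of the members was -0.05, with 12 above 0 and 14 below, and that of all genes was -0.02. The values of the members ran from -0.35 for *Ep300* to 0.53 for *Brd2* and 0.60 for *Hdac8*. The 3 control KD and the 3 *Yy1* KD values did not overlap in 6 of the 26 genes as higher (*Hdac2*, *Hdac8*, *Sirt1*, *Sirt6*, *Brd2* and *Brd3*), or 23.1%, against 12.9% of all genes. They did not overlap in 5 as lower (*Crebbp*, *Kat2a*, *Kat5*, *Hdac1* and *Brd1*), or 19.2%, against 17.2% of all genes. *Hdac8* passed the filter only through its *Yy1* KD values, so that its place among the higher genes was partly set by the filter. At an unadjusted p under 0.05, limma had 9.35% of all genes as higher and 14.4% as lower (23.8% in all), with 4 and 4 of the 26 members. limma-voom on read pairs recovered from TPM called 4.73% of all genes higher and 7.59% lower (12.3% in all), with 1 and 2 of the 24 members it could test.

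**Figure D1:**
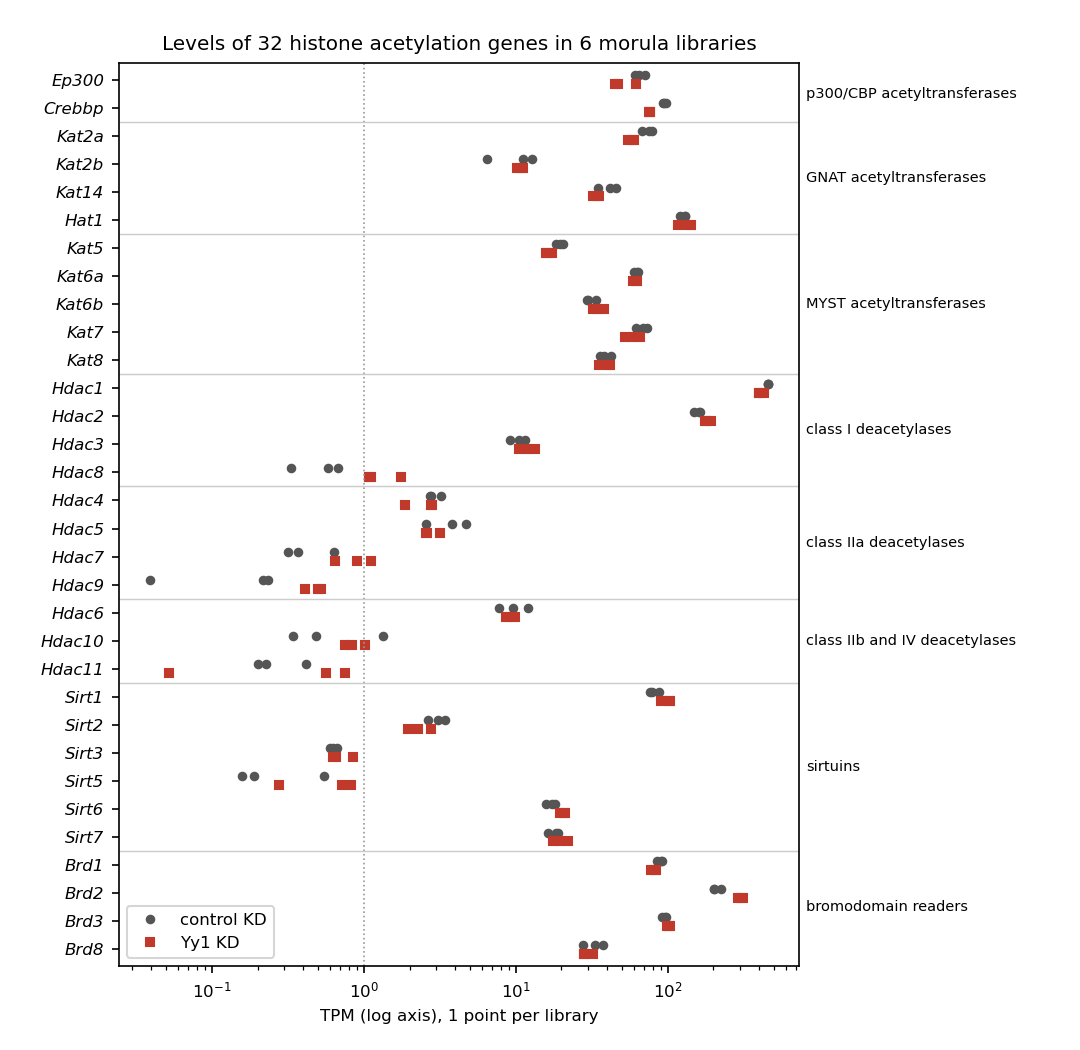
TPM on a log axis of the 32 genes, grouped by role, with 1 point per library for control KD (circles, n = 3) and *Yy1* KD (squares, n = 3) and a dotted line at 1 TPM. *Hdac1* is highest, near 456 TPM in control KD, *Hdac7*, *Hdac9*, *Hdac10*, *Hdac11*, *Sirt3* and *Sirt5* lie around or under 1 TPM, and only *Brd2* and *Crebbp* passed the test.

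The levels of the members spanned a wide range in control KD morulae, from 0.164 TPM for *Hdac9* to 456 TPM for *Hdac1*. *Hdac1* was followed by *Brd2* at 208 TPM, *Hdac2* at 157 TPM and *Hat1*, which acetylates newly made histones in the cytoplasm, at 127 TPM. *Crebbp* and *Brd3* came next with 95.3 ± 2.48 and 95.2 ± 3.42 TPM, a difference far smaller than their SDs (n = 3). *Hdac1* had a mean above that of 98.4% of all genes tested. All 11 acetyltransferases were tested, with control means between 10.2 and 127 TPM. In contrast, only 7 of the 11 HDACs and 4 of the 6 sirtuins passed the filter, and no member of class IIa was above 5 TPM.

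Among the p300/CBP pair, *Crebbp* fell. *Crebbp* (ENSMUSG00000022521.10, chr16:4081328-4213997, minus strand), which encodes the coactivator CBP, was at 94.0, 98.2 and 93.8 TPM in control KD and at 76.9, 76.8 and 75.8 TPM in *Yy1* KD. All 3 *Yy1* KD libraries were below all 3 control KD libraries, and the mean was 0.803 times that of control KD. The log2 fold change was -0.31 (standard error 0.065, 95% interval -0.47 to -0.16), with adjusted p = 0.0432 by limma. This call rested on all 6 libraries: without any 1 of them the log2 fold change stayed between -0.32 and -0.29 and the adjusted p of limma was 0.0923 to 0.124. It was also lost without the filter on low values, with median-ratio scaling, with quantile normalization and without the variance trend, at adjusted p of 0.0713 to 0.132 by limma, and held with limma-voom on recovered read pairs (adjusted p = 0.0109).

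*Ep300*, which encodes p300, was at 70.9, 64.3 and 61.3 TPM in control KD and at 44.7, 62.2 and 47.4 TPM in *Yy1* KD. The second *Yy1* KD library lay within the control range, so that the groups overlapped. The log2 fold change was -0.35 (95% interval -0.68 to -0.03, adjusted p = 0.176 by limma) and was not called. The summed TPM of the pair was 161 ± 5.11 in control KD and 128 ± 9.64 in *Yy1* KD without overlap, and *Ep300* made up 40.7% and 40.0% of it.

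Of the GNAT enzymes, *Kat2a* was the one whose groups stood apart. *Kat2a*, the GCN5 acetyltransferase of the SAGA and ATAC coactivator complexes, was at 67.3, 79.0 and 75.02 TPM in control KD and at 58.8, 54.5 and 60.0 TPM in *Yy1* KD. Its log2 fold change of -0.35 (95% interval -0.56 to -0.13) did not pass the main test (adjusted p = 0.0734 by limma), while limma-voom gave adjusted p = 0.0452. *Kat2b*, its close relative PCAF, was much lower, at 10.2 ± 3.24 and 10.8 ± 0.479 TPM. *Kat2b* shares 3.12% of its 75-base stretches with the pseudogene *Kat2b-ps*, which was listed at 60.0 ± 11 and 85.0 ± 6.81 TPM, so that the value of *Kat2b* is uncertain where pairs could be placed on either. *Kat14*, of the ATAC complex, was at 40.7 ± 5.46 and 33.9 ± 1.61 TPM (adjusted p = 0.256 by limma), and it shares 12.1% of its stretches with the overlapping gene *Pet117*. *Hat1* was at 127 ± 5.35 and 132 ± 12.6 TPM, with overlapping groups.

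None of the 5 MYST enzymes was called by limma, none had an unadjusted p under 0.05, and limma-voom called 0 of the 3 it could test. *Kat5*, the catalytic subunit TIP60, was at 20.5, 19.5 and 18.5 TPM in control KD and at 15.9, 17.2 and 16.3 TPM in *Yy1* KD. The groups did not overlap, but the log2 fold change of -0.23 (95% interval -0.47 to 0.01) gave an adjusted p of 0.223 by limma. *Kat5* overlaps *Rnaseh2c* on the other strand over 426 of its 3509 exon bases and shares 8.87% of its stretches with it. As the pairs were counted without strand, the 2 genes cannot be told apart there, and *Rnaseh2c* had 189 ± 12.6 TPM in control KD against 159 ± 1.99 TPM in *Yy1* KD. *Kat7*, the HBO1 enzyme whose promoter site is printed above, was at 61.8, 73.2 and 68.9 TPM in control KD and at 65.2, 52.3 and 59.2 TPM in *Yy1* KD, with overlap and adjusted p = 0.315 by limma. *Kat6a*, the MOZ enzyme, was at 62.0 ± 2.18 and 61.0 ± 2.0 TPM, and its 95% interval of -0.20 to 0.15 was among the narrowest. *Kat6b* was at 31.1 ± 2.37 and 35.0 ± 3.03 TPM and *Kat8*, the MOF enzyme of the histone H4 tail, at 38.6 ± 3.27 and 39.3 ± 3.67 TPM.

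The 11 acetyltransferases together had 4 log2 fold changes above 0 and 7 below, with a median of -0.21. Their groups stood apart as lower in 3 genes (27.3%, against 17.2% of all genes), including *Kat5* with its overlap with *Rnaseh2c*. They stood apart as higher in 0 (against 12.9%). By limma 1 of the 11 was called lower, against 4.2% of all genes, and by limma-voom 2 of 9, against 7.59%. The unadjusted p of limma was under 0.05 for 3 of the 11, all lower, against 14.4% of all genes. With so few genes, these counts are no more than a description. Their summed TPM was 631 ± 10.1 in control KD and 573 ± 15.2 in *Yy1* KD, without overlap, also after median-ratio scaling and quantile normalization. Of its parts, only the p300/CBP sum stayed without overlap under both scalings. The GNAT sum overlapped after either scaling, and the MYST sum overlapped throughout, at 219 ± 8.46 and 211 ± 5.80 TPM before scaling.

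**Figure D2:**
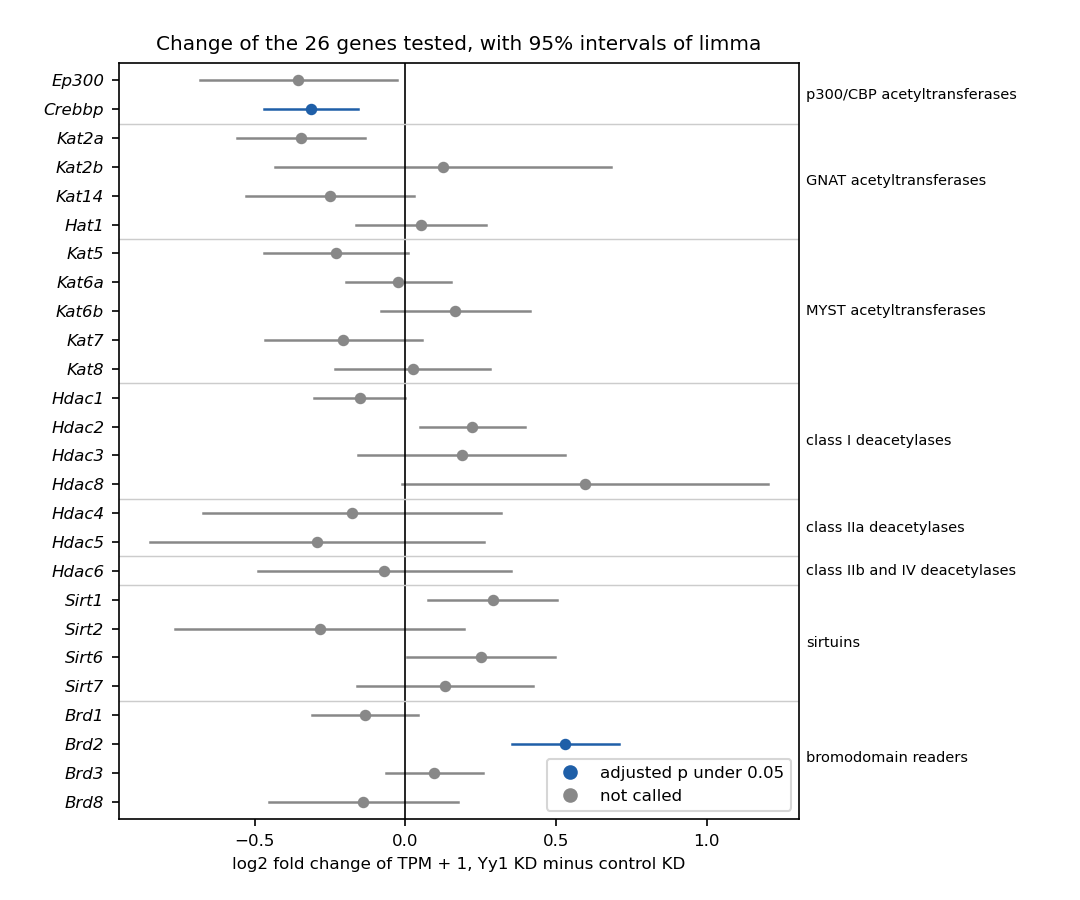
Log2 fold change of TPM + 1, *Yy1* KD minus control KD, for the 26 genes tested (n = 3 libraries per group), with 95% intervals from limma as lines. Only *Crebbp* (-0.31) and *Brd2* (0.53) were called, and the interval of *Hdac8* is the widest.

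Of the class I deacetylases, *Hdac1* and *Hdac2* encode catalytic subunits of the SIN3, NuRD and CoREST complexes. *Hdac1* lay below and *Hdac2* above the control KD range in every *Yy1* KD library, and neither passed the test. *Hdac1* was at 455, 459 and 454 TPM in control KD and at 401, 400.4 and 430.3 TPM in *Yy1* KD. Every *Yy1* KD value was lower, at 0.900 times the control mean, and the adjusted p of limma was 0.205. *Hdac2* was at 149, 161 and 162 TPM in control KD and at 193, 182 and 175 TPM in *Yy1* KD. Here every *Yy1* KD value was higher, at 1.17 times the control mean, with a log2 fold change of 0.22 (95% interval 0.05 to 0.40, adjusted p = 0.127 by limma). The share of *Hdac2* in the summed TPM of both was 25.6% ± 0.893 in control KD and 30.9% ± 1.82 in *Yy1* KD, without overlap, and a scaling factor per library leaves this share as it is. The sum of both overlapped between groups, at 613 ± 8.35 and 594 ± 11.5 TPM, and made up 95.5% and 95.1% of all HDAC transcripts by TPM. *Hdac1* shares 28.0% of its stretches with the pseudogene *Hdac1-ps*, listed at 105 ± 14.8 and 113 ± 13.6 TPM with overlap. The part that placement of pairs between *Hdac1* and *Hdac1-ps* has in the values was not tested.

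*Hdac3*, the deacetylase of the NCOR complexes, was lower by far, at 10.5, 9.22 and 11.5 TPM in control KD and at 13.4, 10.5 and 12.0 TPM in *Yy1* KD, with overlap. *Hdac8*, which acts on cohesin, was at 0.679, 0.580 and 0.332 TPM in control KD and at 1.12, 1.77 and 1.08 TPM in *Yy1* KD. These values lie at the limit of the filter, and the log2 fold change of 0.60 had a 95% interval of -0.01 to 1.2 (adjusted p = 0.217 by limma). The size depended on the scale, with 1.19 for a pseudocount of 0.1 and 1.34 by limma-voom, neither of them called.

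The signal-responsive class IIa genes were low, with *Hdac4* at 2.90 ± 0.261 and 2.47 ± 0.529 TPM and *Hdac5* at 3.71 ± 1.08 and 2.78 ± 0.330 TPM. *Hdac4* shares 21.2% of its stretches with *Gm26720*. *Hdac7* and *Hdac9* were not tested, at 0.315 to 0.635 and 0.0391 to 0.235 TPM in control KD and at 0.646 to 1.11 and 0.408 to 0.522 TPM in *Yy1* KD, without overlap. *Hdac6*, a cytoplasmic tubulin deacetylase, was at 9.84 ± 2.15 and 9.21 ± 0.654 TPM. *Hdac10* and *Hdac11* stayed between 0.0524 and 1.35 TPM over all libraries and were not tested. Of the 7 HDACs tested, limma and limma-voom called 0, and an unadjusted p under 0.05 was found for 1 higher (*Hdac2*) and 1 lower (*Hdac1*), near the 9.35% and 14.4% of all genes. Their summed TPM, 642 ± 7.36 and 625 ± 13.4, overlapped between the groups.

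No sirtuin was called, and the groups of *Sirt1* and *Sirt6* stood apart as higher. *Sirt1*, a nuclear deacetylase of histones and transcription factors, was at 87.0, 78.9 and 76.0 TPM in control KD and at 90.5, 103 and 103 TPM in *Yy1* KD, without overlap. Its log2 fold change was 0.29 (95% interval 0.08 to 0.51, adjusted p = 0.111 by limma). *Sirt6*, a chromatin-bound deacetylase, was at 17.2, 15.8 and 18.2 TPM in control KD and at 20.8, 21.2 and 19.6 TPM in *Yy1* KD, again without overlap, with 0.25 (0.01 to 0.50) and adjusted p = 0.199 by limma. *Sirt7*, found in the nucleolus, was at 17.9 ± 1.43 and 19.7 ± 2.18 TPM with overlap. *Sirt2*, a mainly cytoplasmic enzyme, was at 3.42, 3.08 and 2.66 TPM in control KD and at 2.28, 1.95 and 2.77 TPM in *Yy1* KD, with overlap, and its promoter site is printed above. The mitochondrial *Sirt3* and *Sirt5* lay between 0.159 and 0.852 TPM and were not tested. The summed TPM of the 6 sirtuins, mostly that of *Sirt1*, was 120 ± 4.47 in control KD and 143 ± 7.85 in *Yy1* KD, without overlap also after median-ratio scaling and quantile normalization. Of the 4 tested, limma and limma-voom called 0, and 2 had an unadjusted p under 0.05 as higher, against 9.35% of all genes, a count over 4 genes only.

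Among the bromodomain readers, *Brd2* rose. *Brd2* (ENSMUSG00000024335.20, chr17:34112023-34122634, minus strand), a BET protein that binds acetylated histone H4 and supports transcription, was at 224, 201 and 200.5 TPM in control KD and at 289, 312 and 303 TPM in *Yy1* KD. The lowest *Yy1* KD library was above the highest control KD library, and the mean was 1.45 times that of control KD. The log2 fold change was 0.53 (standard error 0.074, 95% interval 0.35 to 0.71), with adjusted p = 0.0156 by limma and 0.000545 by limma-voom. Without the control KD replicate 2, the control KD replicate 3, the *Yy1* KD replicate 2 or the *Yy1* KD replicate 3, the log2 fold change was 0.50 to 0.53 and the call was lost at adjusted p of 0.0522 to 0.0675 by limma. It was also lost without the variance trend (adjusted p = 0.0639 by limma). *Brd2* overlaps *H2-DMa* and *CR974462.3* on the other strand, over 765 of its 7826 exon bases for both together. It shares 3.36% and 3.65% of its stretches with them, and *H2-DMa* was at 2.09 ± 0.575 and 2.67 ± 0.209 TPM.

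*Brd3*, the other BET gene of the set, was at 91.4, 98.1 and 96.0 TPM in control KD and at 99.4, 104 and 102 TPM in *Yy1* KD. The groups did not overlap, yet the log2 fold change of 0.10 (95% interval -0.06 to 0.26) was small, with adjusted p = 0.441 by limma. *Brd2* made up 68.6% ± 2.09 of the summed TPM of both in control KD and 74.7% ± 0.316 in *Yy1* KD, without overlap. *Brd1*, a scaffold of MYST complexes, was at 92.2, 90.5 and 84.5 TPM in control KD and at 77.3, 82.2 and 83.7 TPM in *Yy1* KD, without overlap and with adjusted p = 0.330 by limma. *Brd8*, a reader of the TIP60 complex, was at 32.8 ± 4.91 and 29.5 ± 2.41 TPM. The summed TPM of the 4 readers was 425 ± 13.2 and 514 ± 14.7, without overlap, and the difference came mostly from *Brd2*.

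**Figure D3:**
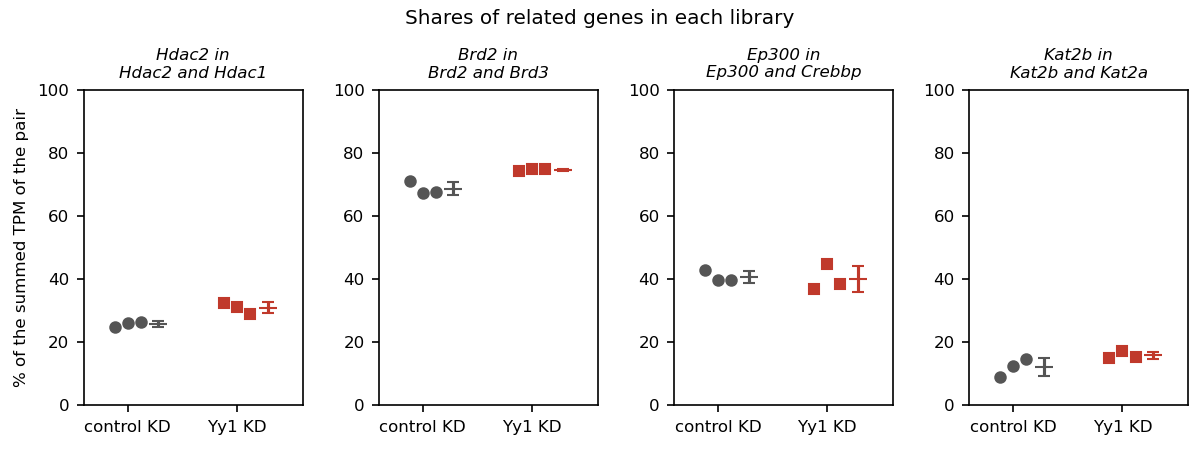
Share of the first gene in the summed TPM of a pair of related genes, in percent from 0 to 100, for each library (points) with the mean and SD of 3 libraries beside them. The share of *Hdac2* with *Hdac1* (25.6% and 30.9%), of *Brd2* with *Brd3* (68.6% and 74.7%) and of *Kat2b* with *Kat2a* (11.9% and 15.8%) was higher in every *Yy1* KD library. For *Kat2b* with *Kat2a* the gap was narrow, from 14.5% in the highest control KD library to 14.9% in the lowest *Yy1* KD library. The share of *Ep300* with *Crebbp* overlapped.

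The genes that act with these enzymes were then described from lists of partner subunits written from general knowledge. As earlier results of these data were known when the lists were chosen, the shares by list are a description only. The lists held 119 genes of the table, of which 116 were tested, 2 rose (1.72%) and 6 fell (5.17%), near the 1.92% and 4.2% of all genes. Their median log2 fold change was -0.07. The 3 and 3 values stood apart as higher in 12 genes (10.3%) and as lower in 30 (25.9%), against 12.9% and 17.2% of all genes.

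The largest falls among the partners were those of *Jade1* and *Zmym2*. *Jade1*, the scaffold that ties KAT7 to histone H4 acetylation, was at 38.3, 26.5 and 33.1 TPM in control KD and at 13.1, 13.9 and 13.9 TPM in *Yy1* KD, which is 0.418 times the control mean (log2 fold change -1.19, standard error 0.145, adjusted p = 0.0126 by limma). *Zmym2*, a zinc finger protein bound to the CoREST deacetylase complex, was at 38.8, 35.1 and 38.4 TPM in control KD and at 16.04, 16.6 and 19.6 TPM in *Yy1* KD (log2 fold change -1.07, standard error 0.11, adjusted p = 0.00947 by limma). Both kept the call when any library but the control KD replicate 3 was left out, without which neither was called. *Ncor1*, the corepressor that binds and activates HDAC3, was at 36.6, 37.8 and 46.9 TPM in control KD and at 25.0, 21.4 and 23.3 TPM in *Yy1* KD (log2 fold change -0.77, standard error 0.124, adjusted p = 0.0233 by limma).

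Of the 7 called partners with a promoter window, 2 held the motif, *Jade1* and *Ncor1* (28.6%, against 6.96% of all genes with a window). By windows this was 2 of 12 (16.7%), against 6.05% of all windows, a count over few genes. The sites of *Jade1* and *Ncor1* are shown as the only ones among the called partners.
Jade1, first: cgagaggctcaGCCATATTtgatggttttg
Jade1, second: agtacgtcattAATATGGCgccaaaagatt
Ncor1: ggggttgaggcAAGATGGCggctaaggtgg
The 2 runs of *Jade1* lie at chr3:41563647-41563676 and chr3:41563743-41563772 (GRCm38.p6, plus strand, as the gene), with motifs 93 bases before and 4 bases after the start. The run of *Ncor1* lies at chr11:62457289-62457318, printed on the minus strand, as the gene, with the motif 26 bases after the start. All 3 sites are in untranslated exon sequence of these genes by GENCODE vM21. Over all partners, 12 of 144 windows held the motif (8.33%), against 6.05% of all windows.

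The remaining called partners changed less. *Morf4l1*, the chromodomain subunit MRG15 of the TIP60 and SIN3 complexes, fell from 57.6 ± 5.27 to 37.6 ± 3.91 TPM (adjusted p = 0.0331 by limma). *Brpf3*, a scaffold of MYST enzymes, fell from 22.3 ± 1.22 to 15.4 ± 1.38 TPM (adjusted p = 0.0480). *Anp32b*, an acidic nuclear protein of the family that masks histone tails, fell from 1008 ± 64.7 to 724 ± 62.9 TPM (adjusted p = 0.0349). *Ruvbl1*, an ATPase of the TIP60 complex and of other remodelling complexes, rose from 147 ± 6.0 to 199 ± 8.62 TPM (adjusted p = 0.0233). *Vps72*, a histone H2A.Z chaperone of the same complex, rose from 61.4 ± 5.89 to 85.7 ± 3.31 TPM (adjusted p = 0.0350). These 5 calls and that of *Ncor1* were lost when any 1 of the 6 libraries was left out, with the direction kept.

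By complex, the 17 tested partners of the NCOR, CoREST and MiDAC deacetylase complexes had 16 log2 fold changes below 0 and a median of -0.31. Of these, 2 fell (*Ncor1* and *Zmym2*, or 11.8%, against 4.2% of all genes) and 0 rose (against 1.92%). In 9 (52.9%) the groups stood apart as lower, against 17.2% of all genes. Chosen after its values were seen, *Kdm1a*, the demethylase of CoREST, had a log2 fold change of -0.31 (adjusted p = 0.0606 by limma). The deacetylases of these complexes, none of them called, had log2 fold changes of 0.19 for *Hdac3*, 0.22 for *Hdac2* and -0.15 for *Hdac1*. The 16 partners of TIP60 were divided: 8 stood apart as higher (50%, against 12.9% of all genes) and 3 as lower (18.8%, against 17.2%). By the test 2 rose (12.5%, against 1.92%) and 1 fell (6.25%, against 4.2%), and the median was 0.10. The 18 partners of the other MYST enzymes had 2 called lower (11.1%, against 4.2% of all genes) and a median of -0.08.

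The 21 partners of SAGA and ATAC, 17 of SIN3, 16 other acetyl-lysine readers and 7 enzymes of acetyl-CoA and NAD+ supply had 0 genes called by limma. At an unadjusted p under 0.05, these 4 lists held 4, 5, 3 and 0 genes, and limma-voom called 2, 1, 0 and 0 of them, against 23.8% and 12.3% of all genes. Their medians lay between -0.08 and 0.05. The 4 INHAT-type genes had 1 called lower, *Anp32b* (25%, against 4.2% of all genes), a count over 4 genes only.

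**Figure D4:**
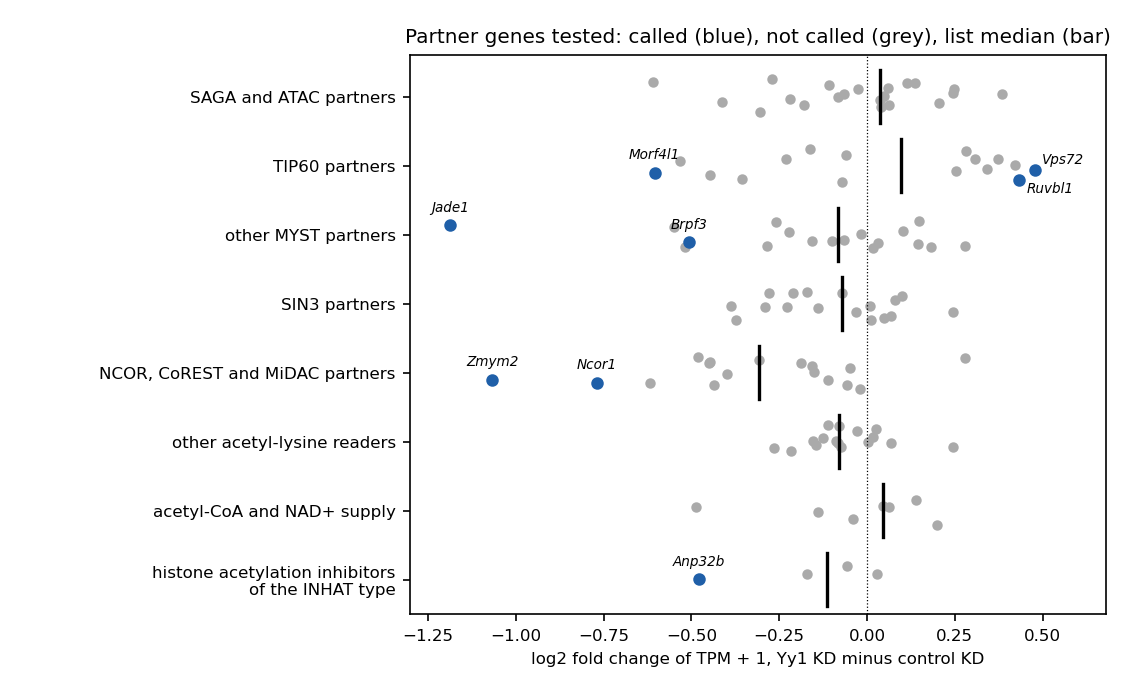
Log2 fold change of TPM + 1, *Yy1* KD minus control KD, of the 116 partner genes tested, by list (n = 3 libraries per group). Called genes are blue and named, others grey, black bars are list medians and heights within a list are only spread for legibility. The NCOR, CoREST and MiDAC list has 16 of 17 genes below 0, and the TIP60 list has genes on both sides.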

How the data were processed

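RNA-seq was performed with the SMART-Seq stranded kit on 3 libraries of control KD and 3 of *Yy1* KD morulae, grouped by their labels. The authors trimmed the reads (Trim Galore 0.6.7), aligned them to mm10 with HISAT2 2.2.1, removed ribosomal RNA reads with bedtools, assigned pairs to GENCODE vM25 genes with featureCounts 2.0.1, with strand ignored and pairs on overlapping genes divided, and deposited TPM per gene and library. TPM is not suited to the count test of the study, so that log2(TPM + 1) of genes with at least 1 TPM in at least 3 libraries was analysed with limma 3.58.1 under R 4.3.3, allowing for a variance trend and using no block. The fit was tested on simulated data. ± is the SD over 3 libraries and intervals are those of limma.

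GENCODE vM21, on the same assembly, gave coordinates, exon lengths and shared 75-base stretches and matched 55104 of 55364 identifiers. For limma-voom, TPM was turned back into read pairs by way of the exon lengths, with 80.6% to 81.6% of values under 20 pairs within 0.01 of a whole number. *Kat6a* and *Kat6b* lacked a length of the same version there. Promoter windows are from RefSeq.

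The members and lists were chosen with earlier results of these data known. All 32 members, *Yy1* and the called partner genes were to be named, with every library value for members called or without overlap. Markers and genes that overlap or copy a member are also named, and any further gene is marked as picked after the values were known. Figures were drawn with matplotlib 3.10.9. Repetitive elements were not analysed here.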

Additional observations from a re-analysis of the deposited data

How the results depend on the processing

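Relative to the main values (333 genes higher and 728 lower of all genes, 1 and 1 of the acetylation genes, 2 and 6 of the partners), the counts stayed within 1.5 times for a pseudocount of 0.1, robust variances and library weights. Without the filter on low values they were 77 and 270 of all genes, 1 and 0 of the acetylation genes and 1 and 2 of the partners. Without the variance trend they were 132 and 382, 0 and 0, and 0 and 2. With median-ratio scaling and with quantile normalization, 0 acetylation genes were lower, and quantile normalization gave 5 higher partners, as did a mean TPM of at least 5. limma-voom on recovered read pairs gave 801 and 1285 of all genes, 1 and 2 of the acetylation genes (*Kat2a* and *Crebbp* lower) and 5 and 15 of the partners. Leaving out each library in turn gave 22 to 92 genes higher and 53 to 326 lower, 0 to 1 and 0 to 0 of the acetylation genes, and 0 to 0 and 0 to 2 of the partners, with fewer libraries in each fit. The cause of the other changes was not tested. With the replicate block, 69 genes were higher and 218 lower, 0 and 0 of the acetylation genes and 0 and 2 of the partners (*Jade1* and *Zmym2*). The labels number the libraries alike in both groups and do not say whether equal numbers share a culture or a day. The deviations of same-numbered libraries correlated at -0.004, 0.032 and 0.075. With 3 libraries per group, such values cannot decide whether the libraries were paired.

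Of 35 genes under these alternatives, 471 of 554 values kept their direction and their side of the threshold. Genes that were not called and stayed so count among these. The call was lost in 73 values of 10 genes, which are all the called members and partners, and it was gained in 1. Direction turned only for genes near 0: *Kat6a* was at 0.0024 with median-ratio scaling, 0.0483 with quantile normalization, and ran from -0.0507 to 0.0031 without single libraries. *Hdac6* was at 0.0044 with quantile normalization. Without single libraries *Hdac6* ran from -0.2104 to 0.0753, *Kat2b* from -0.1369 to 0.2979 and *Kat8* from -0.0297 to 0.1011. The filter on low values left 6 members around or under 1 TPM out of the main test, and without it 32 members were tested.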
